A study of Saccharomyces cerevisiae with 8 samples.

Results

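Raising the dose of Sir3 in budding yeast was followed here gene by gene, by setting 2 libraries of a strain that overexpresses SIR3 from the GPD promoter (GPD-SIR3) against 2 libraries of the wild type (WT). Both strains are *Saccharomyces cerevisiae* of the W303 background, harvested during exponential growth, and WT carries no SIR3 construct according to its label. Genes were taken into the comparison when their value reached 10 in at least 2 of these 4 libraries, which held for 5432 of the 5798 genes in the table. The series has 8 libraries in all, with 2 more each of a strain that overexpresses the A2Q point mutant from the same promoter (GPD-SIR3-A2Q) and of a strain in which SIR3 is deleted (SIR3Δ). The labels do not say whether the GPD promoter replaced the promoter at the SIR3 locus or drives a further copy, nor whether separate cultures were grown for the 2 libraries of a strain. The p-values therefore measure the spread between these samples, which may be technical.

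Sir3 binds nucleosomes as part of the SIR complex, in which Sir2 removes acetyl groups from histone tails and Sir4 acts as a scaffold. The complex is recruited to telomeres and to the HML and HMR cassettes, spreads along the neighbouring chromatin and lowers transcription there. The amount of Sir3 is known to limit how far silent chromatin reaches inward from a telomere, and the series asks how these domains depend on its dose. The GPD promoter is the strong, constitutive promoter of TDH3, which encodes glyceraldehyde-3-phosphate dehydrogenase.

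The upstream sequences of the genes that the results turn on are shown first. Each run is the stretch from 350 to 51 bases before the start codon, 300 bases, written 5′ to 3′ on the coding strand from the R64 genome (NCBI RefSeq). SIR3 and TDH3 are shown because the construct sets the TDH3 promoter before SIR3. ZRT1 and PHO89 stand for the lower genes near chromosome ends. HIS4, ARG1 and MET14 stand for the lower genes of amino acid and sulfate metabolism, and INO1 and HSP12 for the higher genes. Capitals mark the zinc-responsive element of the regulator Zap1 in ZRT1, CACGTG, the core bound by Pho4 and Cbf1, in PHO89 and MET14, TGACTC, the site of the amino acid regulator Gcn4, in HIS4 and ARG1, CATGTG, the core bound by Ino2 and Ino4, in INO1, and AGGGG, the stress response element of Msn2 and Msn4, in HSP12. Each motif was searched on both strands, and matches of different motifs may overlap at their edges. In each gene only the motif named for it was marked, so unmarked letters may hold matches of the others. No motif was marked in SIR3 and TDH3, although SIR3 holds AGGGG and TDH3 holds its complement CCCCT.
SIR3, upstream, chrXII:1022302-1022601 (minus strand): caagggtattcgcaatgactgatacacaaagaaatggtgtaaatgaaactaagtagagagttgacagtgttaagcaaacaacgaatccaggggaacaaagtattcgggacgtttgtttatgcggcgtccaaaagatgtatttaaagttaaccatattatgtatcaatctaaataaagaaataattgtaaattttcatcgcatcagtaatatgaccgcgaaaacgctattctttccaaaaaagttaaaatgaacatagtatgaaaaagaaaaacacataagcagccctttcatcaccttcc
TDH3, upstream, chrVII:883861-884160 (minus strand): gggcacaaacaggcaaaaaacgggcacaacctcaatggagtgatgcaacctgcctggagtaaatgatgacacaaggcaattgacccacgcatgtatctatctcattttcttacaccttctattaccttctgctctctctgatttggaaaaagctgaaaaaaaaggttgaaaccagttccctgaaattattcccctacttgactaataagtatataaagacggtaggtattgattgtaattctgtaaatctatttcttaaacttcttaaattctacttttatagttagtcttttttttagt
ZRT1, upstream, chrVII:20628-20927 (plus strand): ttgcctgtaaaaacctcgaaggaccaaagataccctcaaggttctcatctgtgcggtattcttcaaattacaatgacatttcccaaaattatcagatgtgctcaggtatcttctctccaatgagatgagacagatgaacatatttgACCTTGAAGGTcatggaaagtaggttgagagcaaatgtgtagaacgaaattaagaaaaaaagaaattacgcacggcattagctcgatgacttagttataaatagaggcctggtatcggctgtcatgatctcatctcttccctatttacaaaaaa
PHO89, upstream, chrII:798573-798872 (minus strand): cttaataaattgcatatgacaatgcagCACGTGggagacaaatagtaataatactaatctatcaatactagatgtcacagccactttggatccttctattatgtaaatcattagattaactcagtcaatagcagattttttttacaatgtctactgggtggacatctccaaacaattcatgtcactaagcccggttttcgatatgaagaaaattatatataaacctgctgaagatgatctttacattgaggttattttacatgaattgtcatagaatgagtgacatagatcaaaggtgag
HIS4, upstream, chrIII:68384-68683 (minus strand): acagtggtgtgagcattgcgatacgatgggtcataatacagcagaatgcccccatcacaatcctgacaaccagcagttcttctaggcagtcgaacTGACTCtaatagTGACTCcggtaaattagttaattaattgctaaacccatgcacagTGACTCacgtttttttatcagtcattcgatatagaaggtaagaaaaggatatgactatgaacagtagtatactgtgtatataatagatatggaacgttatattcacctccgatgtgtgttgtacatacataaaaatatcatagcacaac
ARG1, upstream, chrXV:218861-219160 (plus strand): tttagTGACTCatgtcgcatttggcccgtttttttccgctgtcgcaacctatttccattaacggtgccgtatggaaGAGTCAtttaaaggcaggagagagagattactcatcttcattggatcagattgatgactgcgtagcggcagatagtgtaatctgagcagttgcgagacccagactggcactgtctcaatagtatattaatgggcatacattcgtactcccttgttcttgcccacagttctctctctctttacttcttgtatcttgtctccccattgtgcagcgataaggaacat
MET14, upstream, chrXI:439436-439735 (minus strand): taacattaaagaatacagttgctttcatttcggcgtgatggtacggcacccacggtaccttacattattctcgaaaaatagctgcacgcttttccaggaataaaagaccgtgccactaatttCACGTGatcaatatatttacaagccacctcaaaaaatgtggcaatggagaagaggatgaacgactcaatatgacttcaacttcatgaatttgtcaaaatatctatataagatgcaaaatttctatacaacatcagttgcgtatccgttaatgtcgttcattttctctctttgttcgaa
INO1, upstream, chrX:135984-136283 (minus strand): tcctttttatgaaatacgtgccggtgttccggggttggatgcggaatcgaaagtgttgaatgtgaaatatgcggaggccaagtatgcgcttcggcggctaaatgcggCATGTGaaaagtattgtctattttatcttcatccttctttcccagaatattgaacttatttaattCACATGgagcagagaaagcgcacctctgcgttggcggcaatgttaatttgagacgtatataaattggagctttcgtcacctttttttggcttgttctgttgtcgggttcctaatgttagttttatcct
HSP12, upstream, chrVI:106906-107205 (plus strand): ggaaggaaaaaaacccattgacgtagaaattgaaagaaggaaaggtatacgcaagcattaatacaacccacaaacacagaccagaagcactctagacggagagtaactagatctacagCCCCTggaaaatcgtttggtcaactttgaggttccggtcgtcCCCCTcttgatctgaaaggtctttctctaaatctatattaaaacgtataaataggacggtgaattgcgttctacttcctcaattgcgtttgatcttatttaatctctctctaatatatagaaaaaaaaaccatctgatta
The zinc-responsive element was found 204 bases before the ZRT1 start codon and CACGTG 323 bases before that of PHO89 and 228 before that of MET14. HIS4 held TGACTC 3 times and ARG1 held it 2 times, INO1 held CATGTG 2 times and HSP12 held AGGGG 2 times. Over the same window of all 5774 nuclear genes that have one, CACGTG occurred in 4.12%, TGACTC in 8.23%, CATGTG in 8.33%, AGGGG in 23.3% and the zinc-responsive element in 0.121%. A match describes the letters only.

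Values are read counts that the authors scaled to the same gene sum in each library, that of GPD-SIR3 2. The reads on genes behind them, in units of 1 M (mega), were 16.2 M in WT 1, 11.9 M in WT 2, 15.6 M in GPD-SIR3 1 and 7.01 M in GPD-SIR3 2. A change is the difference GPD-SIR3 minus WT in the mean of log2(value + 1), given ± the SE of a limma model fitted over all 8 libraries and 5473 genes. This scale understates the change of low genes. The call threshold was 0.05 on two-sided p-values adjusted by Benjamini and Hochberg's method over all tested genes. Where genes are counted, fell and rose mean called lower and called higher. For a single gene, the smallest p that an exact two-sided permutation of 2 and 2 libraries allows is 0.333. The intervals given with small read numbers cover counting error alone. The mating state matched between the strains: the alpha-specific pheromone gene MF(ALPHA)1 was at 2940 and 3154 in WT and at 3467 and 4273 in GPD-SIR3, and the a-factor genes MFA1 and MFA2 were at 3 or less in each of the 4 libraries.

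SIR3 (YLR442C, chromosome XII, 1019315 to 1022251, minus strand) was at 448 and 484 in WT and at 10730 and 13865 in GPD-SIR3. The rise was 4.71 ± 0.13, or 26.1-fold, with a limma adjusted p of 4.36e-07. SIR3 took 0.153% and 0.198% of gene reads in the GPD-SIR3 libraries against 0.00639% and 0.00691% in WT. Both GPD-SIR3 libraries lay far above both WT libraries. TDH3, the owner of the promoter, was at 108644 and 120043 in WT and at 132915 and 114782 in GPD-SIR3, with overlapping libraries and a change of 0.11 ± 0.11 (limma adjusted p = 0.835).

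Among the neighbours of SIR3, only RPS1A (YLR441C, 1018141 to 1018908), of the 9 tested among the 5 genes on either side, was called. It encodes a protein of the small ribosomal subunit and lies 406 bases downstream of SIR3 on the same strand. It was at 11445 and 10728 in WT and at 5272 and 5170 in GPD-SIR3, and fell by 1.09 ± 0.09 (limma adjusted p = 2.46e-04). The libraries of a strain lay close together and the strains did not overlap. ECM7, whose start lies next to that of SIR3 on the other strand, was at 607 and 593 in WT and at 485 and 441 in GPD-SIR3, and its change of −0.38 ± 0.12 did not pass (limma adjusted p = 0.381). Farther out, SEC39, MRPL4, LSM3 and CAR2 on the side of RPS1A had changes of −0.12 to 0.28, and YLR446W, VMA6 and RPL6B on the side of ECM7 had changes of −0.14 to 0.12.

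**Figure D1:**
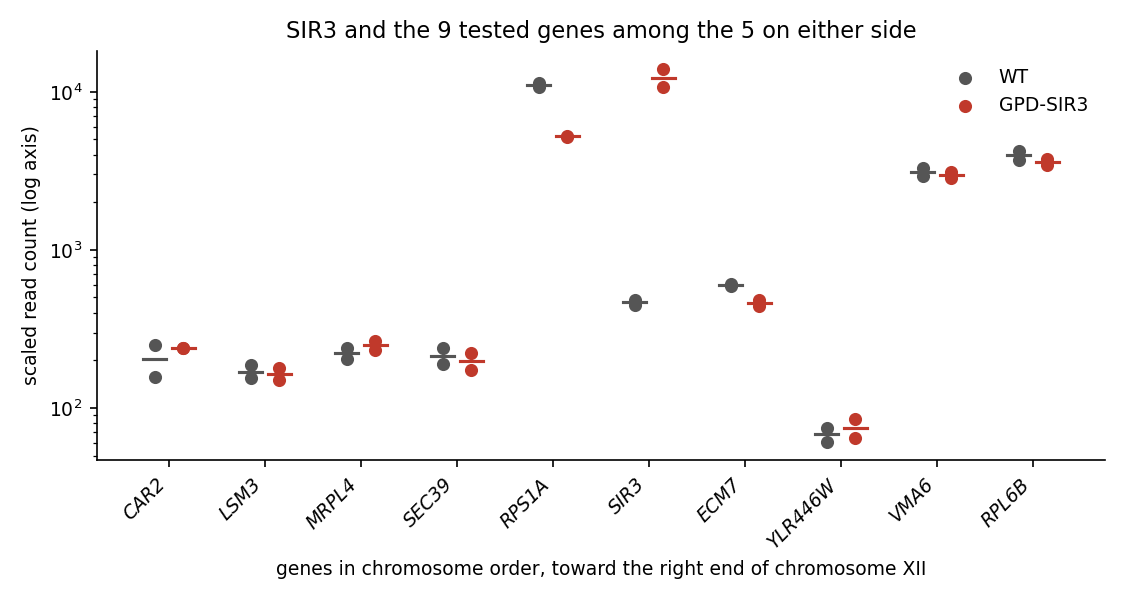
Scaled read count on a log axis of SIR3 and the 9 tested genes among the 5 on either side of it, in chromosome order. Points are the 2 WT and the 2 GPD-SIR3 libraries, short lines their means. SIR3 is higher in GPD-SIR3 by 26.1-fold, RPS1A beside it is lower by 2.12-fold, and the points of the other genes lie close together.

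The genes of the other SIR proteins were not called. SIR4 was at 328 and 365 in WT and at 379 and 399 in GPD-SIR3 (0.17 ± 0.13). SIR1, which acts at the silent cassettes, was at 68.7 and 48.2 in WT and at 67.5 and 78 in GPD-SIR3 (0.33 ± 0.26). SIR2 was at 301 and 294 in WT and at 196 and 148 in GPD-SIR3, a change of −0.80 ± 0.20 with groups that did not overlap. It did not pass in limma (adjusted p = 0.167), whereas DESeq2 called it lower (−0.82, adjusted p = 0.0232). Of the 15 tested genes of SIR and telomere-bound silencing proteins, SIR3 was the 1 called, and the median change was 0.18. In the list of 22 chromatin factors that limit or modify silencing, limma called 0, as did edgeR and DESeq2, 4 had an unadjusted p below 0.05, and the changes ran from −0.58 to 0.58.

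Against the background of 5473 tested genes, limma called 59 lower (1.08%) and 13 higher (0.238%), 72 in all (1.32%). Of these, 48 lower and 8 higher genes changed by at least 2-fold, and the median change of all tested genes was 0.04. Every one of the 72 was among the 5432 genes chosen for this comparison. Among the chosen genes, 22 had passed through the WT libraries alone and 3 through the GPD-SIR3 libraries alone. Of the 59 lower genes, 15 had passed through WT alone, all within 30 kb of a chromosome end, and such genes could hardly have been called in the other direction. Just inside the limit lay YGR066C, REC102 and IMA2, whose second highest values among the 4 libraries were 10, 10.35 and 10.35, and just outside lay YAL018C, DSF1 and YPL119C-A at 9.996. Of the 366 genes below the limit, 113 had no reads in the 4 libraries.

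The lower genes lay mostly near chromosome ends. In bulk RNA of this kind, a lower level in all cells and silence in part of the cells cannot be told apart. Within 10 kb of an end, 20 of 35 tested genes were called lower and 32 were below 0, with a median change of −2.47. From 10 to 20 kb, 19 of 78 were called lower and 54 were below 0, with a median of −0.27. From 20 to 30 kb, of 120 genes only ZRT1 and FZF1 were called lower, and 57 were below 0. From 30 to 50 kb limma called 0 of 290. There, 24 had an unadjusted p below 0.05, 6 of them lower, and DESeq2 called 1 lower and 4 higher. Beyond 50 kb 18 of 4927 were called lower (0.365%) and 40% were below 0. The table lists 121 genes within 10 kb, of which 57 had no reads in WT or GPD-SIR3 and could not show a fall. Of the 20 lower genes within 10 kb, 10 had passed the filter through WT alone, and 11 share over 10% of their 50-base stretches with other places, so that their reads may belong elsewhere.

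**Figure D2:**
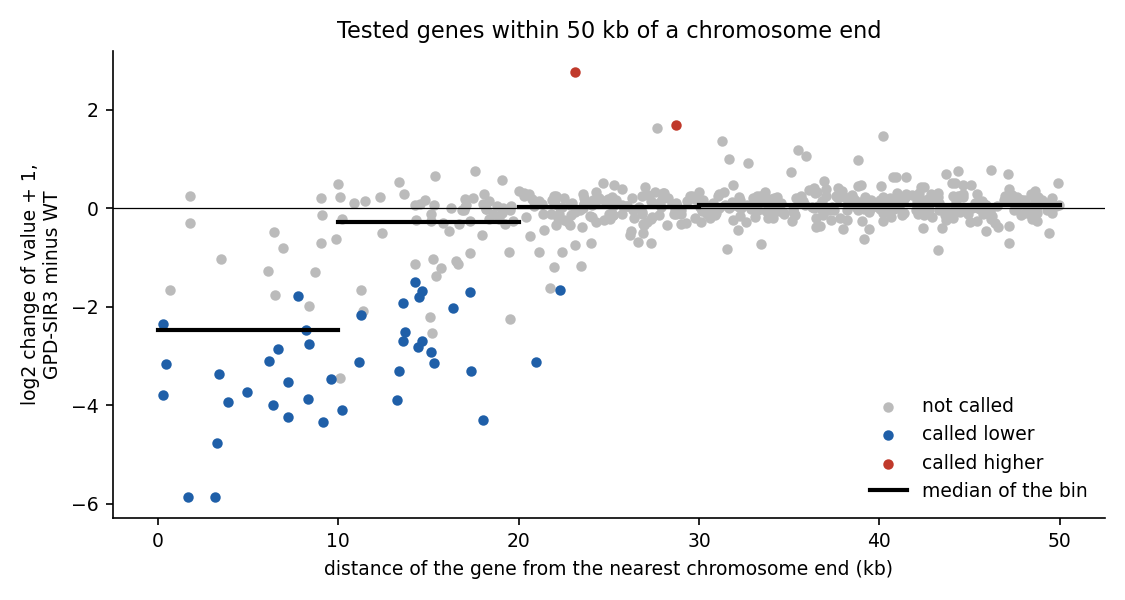
Change of each tested gene (log2 of value + 1, GPD-SIR3 minus WT) against its distance in kb from the nearest chromosome end, for all tested genes within 50 kb. Blue points were called lower and red points higher, and black lines are the medians of the bins, −2.47 within 10 kb, −0.27 from 10 to 20 kb and 0.02 from 20 to 30 kb.

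The sizes of the changes differed between the lower genes near an end and those beyond 50 kb. The 41 lower genes within 30 kb fell by a median of 8.67-fold and the smallest change among them was −1.50 (YER186C). The 18 beyond 50 kb had changes from −1.25 (ARG1) to −0.51 (HOM2). The median WT value of the 41 was 129, and that of the other tested genes within 20 kb was 128. Per kb of gene length, the median WT level of the 41 was 110, against 224 for all tested genes. In direction of transcription, 18 of the 39 lower genes within 20 kb pointed toward the end, as did 64 of all 113 tested there.

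Genes of phosphate metabolism were among the lower genes. PHO89, the sodium-phosphate cotransporter of the plasma membrane (chromosome II, 796798 to 798522, 14.7 kb from the right end), was at 2053 and 2140 in WT and at 371 and 277 in GPD-SIR3. GIT1, the transporter of glycerophosphoinositol, was at 301 and 423 in WT and at 12.1 and 24 in GPD-SIR3. Each of these genes was several-fold higher in both WT libraries than in either GPD-SIR3 library. They changed by −2.70 ± 0.17 (limma adjusted p = 4.65e-05) and −4.30 ± 0.32 (limma adjusted p = 1.17e-04). The secreted acid phosphatases PHO12 (−4.34 ± 0.28, from 937 and 663 to 51.7 and 28) and PHO11 (−3.37 ± 0.27, from 118 and 76.4 to 8.55 and 8) fell too. They share 87.2% and 88.3% of their 50-base stretches with other places, chiefly with one another, so their separate levels are uncertain. Of the 20 tested genes of the phosphate regulon, these 4 were called lower and none higher, against 1.08% called lower among all tested genes. In all, 16 of the 20 were below 0, against 40.7% of all tested genes. The 4 called genes are among its 5 members within 30 kb, where 17.6% of all tested genes were called lower. The fifth was PHO84, the high-affinity phosphate transporter 24 kb from an end, at 15874 and 18861 in WT and at 19840 and 11995 in GPD-SIR3 (−0.17 ± 0.21). Beyond 50 kb the median of the regulon was −0.24, and its abundant acid phosphatase PHO5 was at 7805 and 5467 in WT and at 3905 and 3173 in GPD-SIR3 (−0.89 ± 0.26, limma adjusted p = 0.282). The CACGTG core stood in the upstream window of 3 of the 4 lower genes and of 12 of all 20 members, against 4.12% of nuclear genes. The 3 are PHO89 and the related PHO11 and PHO12.

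Of the 12 tested genes of the zinc regulon, which are induced when zinc is short, ZRT1 and ADH4 fell. ZRT1, the high-affinity zinc transporter (chromosome VII, 20978 to 22108), was at 2550 and 1926 in WT and at 323 and 204 in GPD-SIR3. ADH4, an alcohol dehydrogenase (15159 to 16307 on the same chromosome), was at 313 and 290 in WT and at 46.3 and 33 in GPD-SIR3. Both genes lay at the left end of chromosome VII, and their GPD-SIR3 libraries were far below the WT libraries. The changes were −3.11 ± 0.27 (limma adjusted p = 2.83e-04) and −2.91 ± 0.17 (limma adjusted p = 2.79e-05). Zinc genes elsewhere were not called, with a median change of 0.00 beyond 50 kb. Of the 3 members within 30 kb, where 17.6% of all tested genes were called lower, FET4 (−0.62) was not called. In all, 8 of the 12 tested members were below 0. ZAP1, the regulator itself, had the highest change of the list, 0.17. The low-affinity transporter ZRT2 had one of 0.16 and the vacuolar transporter ZRT3 one of −0.05. In the iron regulon, ARN2, a transporter of ferric siderophores 8.35 kb from an end, fell by 2.75 ± 0.19 (limma adjusted p = 8.32e-05). Its values went from 188 and 198 in WT to 32.4 and 24 in GPD-SIR3. It was the 1 member called of 25. The list as a whole lay mostly above 0, with a median of 0.23 and 4 members below 0, ARN2 included.

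Of the COS family, membrane proteins that help sort other proteins into endosomes, 5 of 8 tested members fell. All 8 lie near a chromosome end, and all but COS9 within 10 kb, where 57.1% of all tested genes were called lower. The count is thus not set apart from that of other genes at such distances. COS10 was at 324 and 254 in WT and at 7.65 and 12 in GPD-SIR3 (−4.76 ± 0.28). COS8 was at 380 and 312 in WT and at 24.7 and 17 in GPD-SIR3 (−4.0 ± 0.20). COS6 was at 295 and 283 in WT and at 51.7 and 51 in GPD-SIR3 (−2.47 ± 0.14). In these genes every GPD-SIR3 library was several-fold below every WT library. COS1 (−3.87 ± 0.31) and COS9 (−1.80 ± 0.26) were the other lower members, and COS1, COS6 and COS8 share 71.1%, 38.3% and 17.4% of their stretches with other places. COS7, 1.8 kb from the left end of chromosome IV, had overlapping libraries (55.3 and 62.9 in WT, 33.3 and 68 in GPD-SIR3), and COS5, 1.75 kb from the right end of chromosome X, was at 16 and 15.3 in WT and at 18.9 and 19 in GPD-SIR3. The call of COS9 ended without WT 1 or without WT 2 (limma adjusted p at most 0.0696) and with only WT and GPD-SIR3 in the fit (0.0634).

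Further genes near other ends fell, among them abundant metabolic genes such as IRC7 and DLD3. Of those named here, only IMD2 and YPS6 are repeated genes. IRC7, a cysteine lyase 4.93 kb from the right end of chromosome VI, was at 1898 and 1642 in WT and at 141 and 124 in GPD-SIR3 (−3.73 ± 0.14, limma adjusted p = 2.19e-06). DLD3, a D-lactate and 2-hydroxyglutarate dehydrogenase, was at 2697 and 3224 in WT and at 628 and 839 in GPD-SIR3 (−2.02 ± 0.19). SRY1, a dehydratase of 3-hydroxyaspartate, was at 380 and 320 in WT and at 34.6 and 34 in GPD-SIR3 (−3.31 ± 0.16). The WT and GPD-SIR3 libraries of these genes stood far apart. IMD2, an IMP dehydrogenase of guanine nucleotide synthesis with 33.7% of its stretches elsewhere, fell from 483 and 346 to 67.5 and 46 (−2.85 ± 0.22). SEO1, a putative permease, fell from 149 and 145 to 11.2 and 4 (−4.24 ± 0.37), and its change was −4.88 without GPD-SIR3 1 and −3.59 without GPD-SIR3 2. BDS1, an alkyl and aryl sulfatase, fell from 149 and 158 to 12.1 and 24 (−3.09 ± 0.30). YIR042C (−3.92), YDR541C (−2.16) and YER186C (−1.50) fell as well, and so did YPS6, an aspartic protease of the cell surface (−1.78), which has 11% of its stretches elsewhere.

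Of the 32 chromosome ends, 22 had at least 1 lower gene, 13 of them exactly 1 and 9 of them 2 or more. At 11 of the 13, the lower gene was the tested gene nearest the end. At 7 of the 9, every tested gene from the end up to the farthest lower gene was lower. At the other 4 ends, 7 tested genes between the end and the farthest lower gene were not called. The farthest lower gene lay at a median of 12.2 kb, from 0.279 to 22.3 kb. The farthest lower genes had a median change of −3.0 and the next tested genes inward one of −0.28; these genes are told apart by the call itself, so the step is a description. Of the 22 next genes, 9 were lower at an unadjusted p below 0.05, and edgeR called 1 and DESeq2 called 4 lower.

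At the right end of chromosome III 7 genes fell. RDS1, which encodes a zinc-cluster transcription factor and lies 3.16 kb from the end, was at 195 and 236 in WT and at 1.8 and 4 in GPD-SIR3, and AAD3, a putative aryl-alcohol dehydrogenase 1.64 kb from the end, was at 104 and 88.2 in WT and at 1.8 and 0 in GPD-SIR3. Almost no reads of either gene remained in GPD-SIR3. Both had a change of −5.85, with an SE of 0.28 for RDS1 and 0.44 for AAD3. That of AAD3 moved to −6.59 without GPD-SIR3 1 and −5.11 without GPD-SIR3 2, and to −3.28 with a pseudocount of 10. Inward of ADH7, an alcohol dehydrogenase that was not called (−1.76 ± 0.38, 15.6 and 16.5 in WT, 4.05 and 4 in GPD-SIR3), YCR102C (−3.12), YCR101C (−2.69), YCR100C (−2.82), YCR099C (−3.14) and GIT1 (−4.30) fell, the last of them 18 kb from the end. HMRA1, the next gene, at the silent cassette, had 0 reads in the 4 libraries of WT and GPD-SIR3. The call of YCR101C ended without WT 1 or without GPD-SIR3 1 (limma adjusted p at most 0.0649). It also ended in limma-voom (0.0798). With only WT and GPD-SIR3 in the fit, YCR101C (0.0597), YCR099C (0.0522) and YCR102C (0.0843) were not called.

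At the left end of chromosome VII the run held ADH4, ZRT1 and FZF1, a regulator of sulfite export 22.3 kb from the end, which was at 96.4 and 111 in WT and at 40.9 and 25 in GPD-SIR3 (−1.66 ± 0.25, limma adjusted p = 0.011). The next gene, HXK2, the main hexokinase, starts 1.63 kb farther in and was at 10571 and 11882 in WT and at 9612 and 10403 in GPD-SIR3 (−0.16 ± 0.12). The call of FZF1 ended without WT 1 or without WT 2 (limma adjusted p at most 0.119) and with only WT and GPD-SIR3 in the fit (0.125).

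At the left end of chromosome XI the order was broken. FRE2, a ferric reductase 9.09 kb from the end, was at 60.5 and 49.4 in WT and at 48.1 and 52 in GPD-SIR3, with overlapping libraries and a change of −0.13 ± 0.21. COS9 at 14.5 kb and SRY1 at 17.4 kb, on its inner side, fell by 1.80 and 3.31, and JEN1, a lactate transporter at 22.2 kb, had a change of −0.11. The genes on the outer side of FRE2 had intermediate values that did not pass, YKL222C −1.02 (limma adjusted p = 0.0793) and the putative transporter MCH2 −1.27 (limma adjusted p = 0.485). On chromosome II, MAL31 and MAL33, the maltose permease and regulator, lay between the right end and PHO89, with changes of −1.29 and −1.65 that did not pass (limma adjusted p of 0.1 and 0.166). The call of COS9 rested on both WT libraries, as given for its family.

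**Figure D3:**
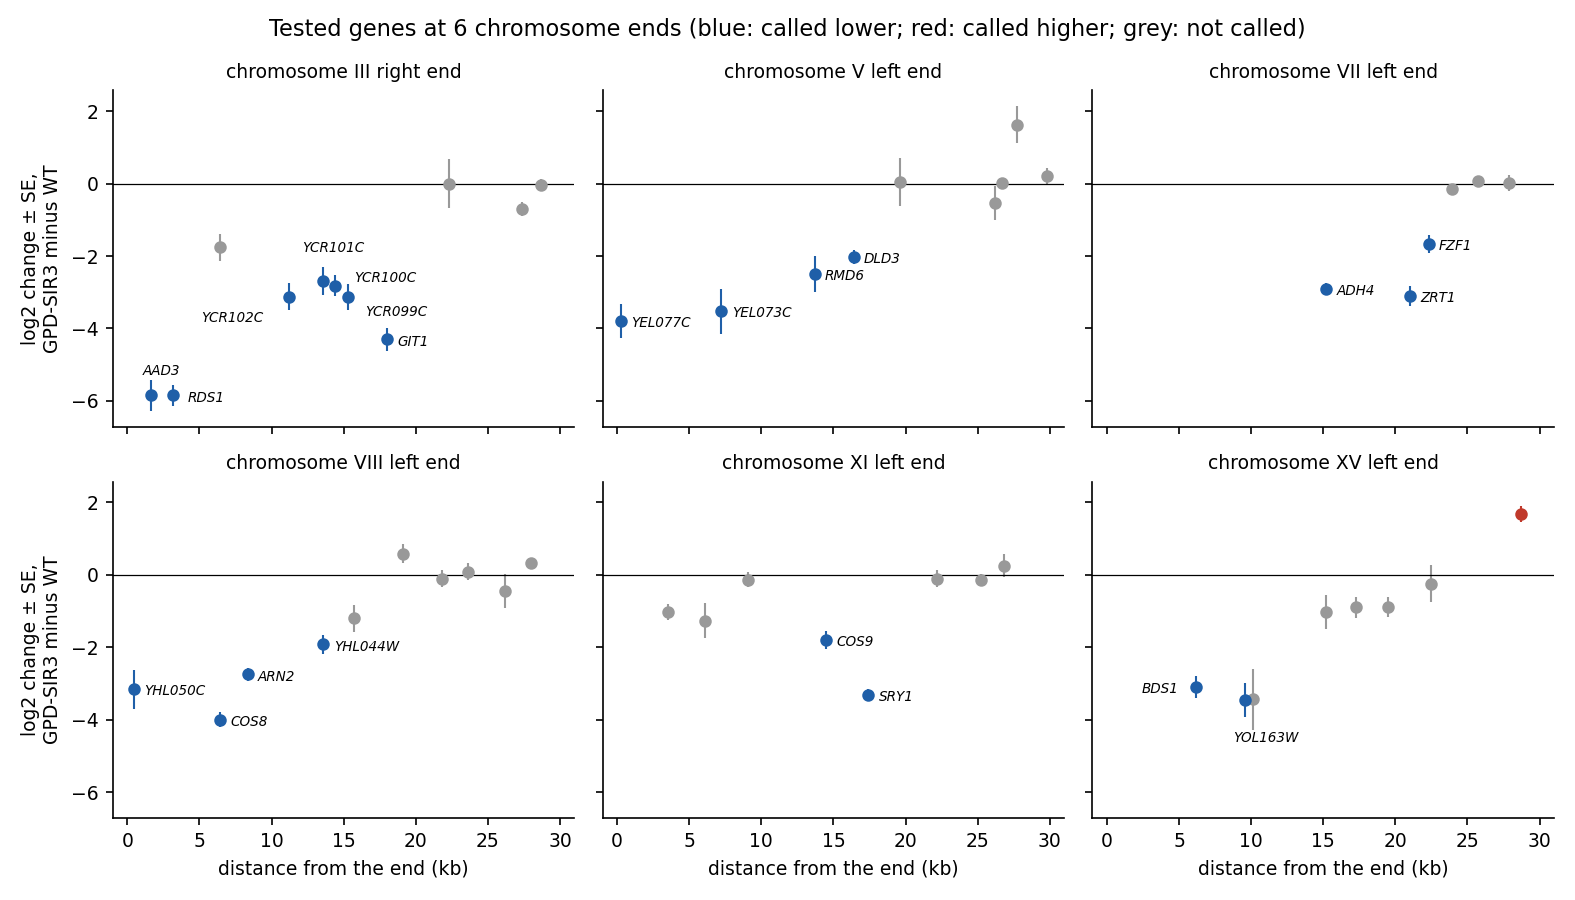
Change (log2 of value + 1, GPD-SIR3 minus WT, ± SE) of each tested gene against its distance in kb from 6 chromosome ends. Blue points were called lower and carry the gene's name, red points were called higher and grey points were not called. FZF1 (−1.66) beside the uncalled HXK2 (−0.16) at the chromosome VII left end, and the uncalled genes outside COS9 at the chromosome XI left end, can be seen.

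The other lower genes near ends had low values. Of YER187W, 90 reads were found in WT and 2 in GPD-SIR3, which puts GPD-SIR3 at 2.77% of WT once depth is taken into account, with an exact 95% interval of 0.33 to 10.3. YPL279C had 3 against 86 (4.34%, 0.879 to 13.1), YHL050C 3 against 70 (5.34%, 1.07 to 16.3) and YOR390W 2 against 64 (3.89%, 0.461 to 14.6). The intervals leave the sizes of these falls loosely set. Together with YEL077C, YEL073C, YOL163W, YBL113C, RMD6, YLR460C, AYT1 and YHL044W they lost their calls when a library was left out. The limma adjusted p reached 0.0566 for YER187W and 0.0829 for YHL044W without WT 2, 0.0515 for YEL077C without WT 1, 0.0931 for YPL279C and 0.086 for YOL163W without WT 1 or WT 2, and 0.18 for AYT1, an acetyltransferase, without WT 1, WT 2 or GPD-SIR3 1. It reached 0.208 for YBL113C (each library of WT and GPD-SIR3-A2Q, and GPD-SIR3 1), 0.237 for YEL073C (all libraries but those of SIR3Δ) and 0.367 for YLR460C (each of the 8). It reached 0.256 for YOR390W, 0.233 for YHL050C and 0.31 for RMD6, a sporulation gene, each of these without any library but GPD-SIR3 2. All 12 also lost the call with only WT and GPD-SIR3 in the fit. In limma-voom the call ended for YEL073C (adjusted p = 0.123), YBL113C (0.0742), AYT1 (0.0539), YLR460C (0.0798) and YOR390W (0.0583). With a pseudocount of 10 it ended for YEL073C (limma adjusted p = 0.0808), YHL050C (0.0804) and YOR390W (0.0969). For RMD6 it ended with a pseudocount of 0.5 (0.0531) and with the filter on the 4 libraries (0.0505). Without GPD-SIR3 1 and without GPD-SIR3 2 in turn, RMD6 moved to −1.71 and −3.29, YOR390W to −2.51 and −4.09, YEL077C to −4.39 and −3.19 and YPL279C to −4.50 and −3.27.

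No lower gene was called at 10 ends. At 4 of these the nearest tested gene lay over 10 kb away: CHA1, a serine and threonine deaminase at the left end of chromosome III (−0.29), YML131W at the left end of chromosome XIII (−0.22), HXT9, a hexose transporter relative at the left end of chromosome X (−2.24, limma adjusted p = 0.13), and YIL169C at the left end of chromosome IX, which rose. At the other 6, the nearest tested genes were COS7 (−0.30), COS4 (−0.48), COS5 (0.26), YKR104W (0.22), FET4, a low-affinity metal transporter (−0.62, limma adjusted p = 0.104), and ARR3, an arsenite pump (−0.81). FET4 was at 1134 and 1228 in WT and at 674 and 872 in GPD-SIR3, without overlap, whereas YKR104W was at 57.9 and 38.2 in WT and at 47.7 and 63 in GPD-SIR3. At these 6 ends the nearest tested gene was thus near WT or below it, without a call.

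Away from the ends, most of the genes that fell belong to amino acid and sulfur metabolism. Of the 18 lower genes beyond 50 kb, 14 are in the 7 lists of these pathways. Most of these 14 calls ended when a library was left out, as given below. Together the lists have 87 tested genes, of which 15 fell, the fifteenth being IRC7 near an end, and 0 were called higher by limma, edgeR or DESeq2, with 1 above 0 at an unadjusted p below 0.05. The median change of the 87 was −0.33 and 74 were below 0, against a median of 0.04 and 40.7% below 0 over all tested genes. Of all tested genes, 1.08% were called lower.

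In sulfate assimilation, which turns sulfate into sulfide and then methionine, MET3, the ATP sulfurylase of the first step, was at 686 and 737 in WT and at 352 and 296 in GPD-SIR3. MET14, the kinase of the second step, was at 369 and 349 in WT and at 151 and 161 in GPD-SIR3. MET16, the reductase of the third step, was at 176 and 198 in WT and at 117 and 101 in GPD-SIR3. In all of these genes both GPD-SIR3 libraries were below both WT libraries, and MET3 (−1.14 ± 0.15) and MET14 (−1.20 ± 0.16) were called, with limma adjusted p of 0.00585 and 0.00541, while MET16 was not (−0.78 ± 0.20, limma adjusted p = 0.188). The sulfite reductase subunits MET10 (−0.99 ± 0.18) and MET5 (−0.98 ± 0.18) fell, as did MET17, which makes homocysteine from sulfide (−0.65 ± 0.13), and MET6, the methionine synthase (−0.80 ± 0.12). MET6 was at 11107 and 11827 in WT and at 6631 and 6516 in GPD-SIR3. SAM1 and SAM2, the S-adenosylmethionine synthetases after MET6, were not called (−0.23 and −0.17), nor were CYS3 (0.07) and CYS4 (−0.07) of cysteine synthesis. The CACGTG core stood in the window of 4 of the 6 lower genes beyond 50 kb, MET5, MET10, MET14 and MET17. It stood in the window of 12 of the 26 tested genes of the list, against 4.12% of nuclear genes. Calls ended for MET14 without WT 1 (limma adjusted p = 0.0537), for MET3 without WT 2 (0.0709) and for MET6 without WT 1, WT 2, GPD-SIR3 1 or GPD-SIR3 2 (at most 0.115). Those of MET10, MET5 and MET17 ended without any library of WT, GPD-SIR3 or GPD-SIR3-A2Q (at most 0.279, 0.248 and 0.29) and with only WT and GPD-SIR3 in the fit (0.0597, 0.0655 and 0.191). Among genes with a mean of at least 50, MET10 (0.0537) and MET17 (0.0623) were not called.

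In arginine synthesis, 4 of 9 genes fell and the other 5 were also below 0. ARG1, argininosuccinate synthetase, was at 1065 and 1424 in WT and at 483 and 552 in GPD-SIR3 (−1.25 ± 0.20, limma adjusted p = 0.0184). ARG7, the ornithine acetyltransferase, was at 1131 and 1115 in WT and at 558 and 577 in GPD-SIR3 (−0.98 ± 0.12, limma adjusted p = 0.0042). The libraries of these genes did not overlap, and the WT libraries of ARG1 lay farther apart than those of ARG7. ARG5,6, which encodes the enzymes of 2 earlier steps, fell as well (−0.74 ± 0.13). HIS4, of histidine synthesis, was at 6069 and 6188 in WT and at 2284 and 3160 in GPD-SIR3 (−1.19 ± 0.18, limma adjusted p = 0.0133), and all 7 histidine genes were below 0. HOM3 and HOM2, the first enzymes of threonine and methionine synthesis (−0.60 and −0.51), and LEU9, of leucine synthesis (−0.57), fell by less than 2-fold. Lysine synthesis (9 tested) and aromatic amino acid synthesis (13 tested) had no limma call, with medians of 0.00 and −0.25. At an unadjusted p below 0.05 there were 3 and 6 genes, and DESeq2 called 2 aromatic genes lower. The Gcn4 site TGACTC stood in the window of all 8 lower genes of these 6 amino acid lists and of 43 of their 61 tested genes (70.5%), against 8.23% of nuclear genes.

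The firmness of these calls differed. Of the genes named, ARG7 was called without each library in turn. Calls ended for HIS4 without WT 1, WT 2 or GPD-SIR3 1 (limma adjusted p at most 0.106) and for ARG1 without WT 2 or without any library of GPD-SIR3 or GPD-SIR3-A2Q (at most 0.157). They ended for ARG5,6 and HOM3 without any library of WT, GPD-SIR3 or GPD-SIR3-A2Q (at most 0.233 and 0.277), for LEU9 without any library but GPD-SIR3 1 (at most 0.235) and for HOM2 without any of the 8 (at most 0.3). With only WT and GPD-SIR3 in the fit, ARG5,6 (limma adjusted p = 0.131), HOM3 (0.18), LEU9 (0.245) and HOM2 (0.303) were not called. Among genes with a mean of at least 50, HOM3 (limma adjusted p = 0.0587) and HOM2 (0.0629) were not called, and HOM2 also missed the threshold with pseudocounts of 0.5 and 10 and with the filter on the 4 libraries (at most 0.052).

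Of the remaining lower genes beyond 50 kb, GAP1, the general amino acid permease, was at 2776 and 2476 in WT and at 1297 and 1319 in GPD-SIR3 (−1.0 ± 0.11, limma adjusted p = 0.00205). MEP2, an ammonium permease, was at 774 and 733 in WT and at 450 and 455 in GPD-SIR3 (−0.73 ± 0.14, limma adjusted p = 0.0405). TNA1, the nicotinic acid permease, was at 3137 and 2971 in WT and at 1325 and 1517 in GPD-SIR3 (−1.11 ± 0.15, limma adjusted p = 0.00556). These are all permeases of the plasma membrane whose libraries did not overlap. GAP1 and MEP2 were the 2 called of 25 tested genes regulated by nitrogen supply, whose median change was 0.02. Of all tested genes, 1.32% were called. The other ammonium permeases MEP1 and MEP3 had changes of −0.13 and 0.04. The call of TNA1 ended without WT 1 (limma adjusted p = 0.0515), and that of MEP2 without any 1 of the 8 libraries (at most 0.28) and with only WT and GPD-SIR3 in the fit (0.131).

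**Figure D4:**
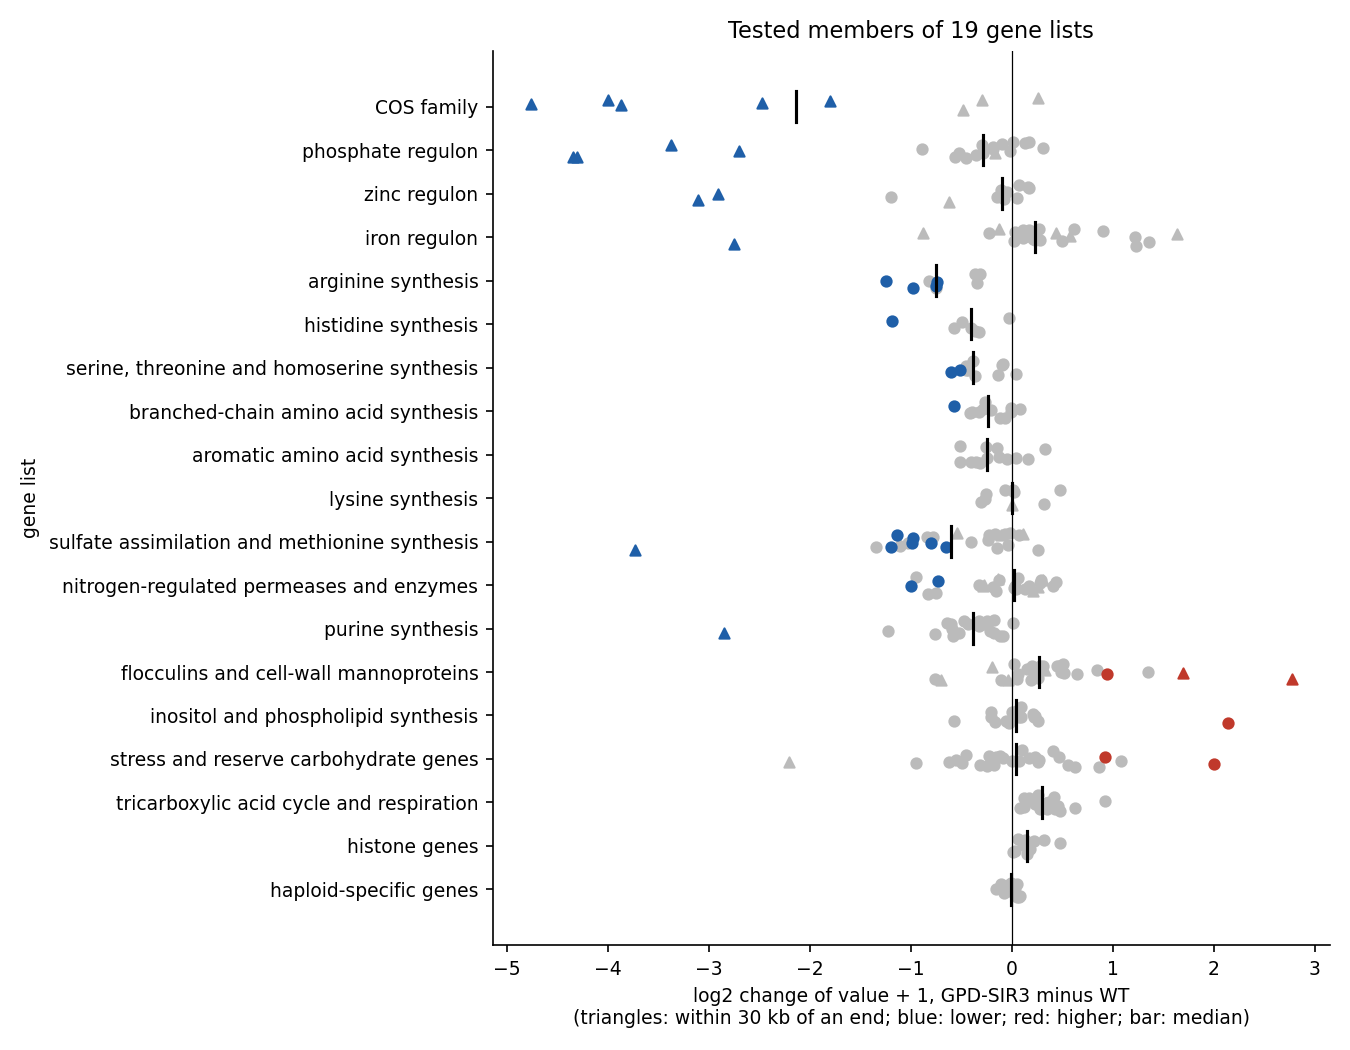
Change (log2 of value + 1, GPD-SIR3 minus WT) of each tested member of 19 gene lists. Blue members were called lower, red ones higher and grey ones were not called, triangles lie within 30 kb of a chromosome end and bars are medians. In the phosphate, zinc and iron lists the called members are triangles, whereas in arginine synthesis (median −0.75) none is.

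Higher genes were fewer. After SIR3, the largest rise was that of YIL169C, which is related to HPF1, a gene of a cell-wall mannoprotein (chromosome IX, 23119 to 26106), at 235 and 185 in WT and at 1484 and 1375 in GPD-SIR3 (2.77 ± 0.20, limma adjusted p = 1.11e-04). Its relative on chromosome XV (HPF1, 28703 to 31606) was at 259 and 376 in WT and at 827 and 1230 in GPD-SIR3 (1.69 ± 0.22, limma adjusted p = 0.00541). Both lie between 20 and 30 kb from an end and were the only higher genes within 30 kb. They share 17.3% and 13.8% of their stretches with other places. SED1, an abundant structural protein of the cell wall, rose from 3291 and 2638 to 5442 and 5867 (0.94 ± 0.17). Thus 3 of 28 tested flocculin and cell-wall genes were called higher and none lower, against 0.238% called higher of all tested genes. The 3 include the related YIL169C and HPF1, and 5 of the 28 were below 0.

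INO1, the inositol-phosphate synthase at the head of inositol synthesis, was at 48.4 and 52.9 in WT and at 232 and 223 in GPD-SIR3 (2.14 ± 0.21, limma adjusted p = 6.65e-04). It was the 1 gene called of 19 tested for inositol and phospholipid synthesis, whose median was 0.04. OPI3 and CHO2, the methyltransferases of phosphatidylcholine synthesis, had changes of −0.57 and 0.23. HSP12, a small membrane-associated stress protein, was at 44.1 and 41.7 in WT and at 141 and 216 in GPD-SIR3 (2.00 ± 0.27, limma adjusted p = 0.00585). SGA1, a glucoamylase (0.92 ± 0.18), was the other gene called of 28 tested for stress and reserve carbohydrates, whose median was 0.04. Of all tested genes, 1.32% were called. HSP26, a small heat shock protein, was at 58.4 and 48.2 in WT and at 94 and 137 in GPD-SIR3, and its change of 1.08 ± 0.28 did not pass (limma adjusted p = 0.169). HSP104, the disaggregase, had overlapping libraries (6643 and 3726 in WT, 2793 and 6295 in GPD-SIR3).

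YOL086W-A, which encodes a histone-fold protein (chromosome XV, 159173 to 159445), was at 99.9 and 87 in WT and at 474 and 634 in GPD-SIR3 (2.54 ± 0.22, limma adjusted p = 2.83e-04), while its highly expressed neighbour ADH1 had a change of 0.05. ULI1 rose from 27.2 and 15.9 to 70.6 and 78 (1.78 ± 0.33), and NCE103, carbonic anhydrase, from 136 and 152 to 301 and 353 (1.18 ± 0.21). None of these genes had overlapping libraries. AHP1, a thioredoxin-dependent peroxidase (0.84), KDX1, a kinase related to that of the cell wall integrity pathway (0.82), and PRY2, a secreted sterol-binding protein (0.65), rose by less than 2-fold. AGGGG stood in the window of 8 of the 13 higher genes, against 23.3% of all tested genes. SIR3 is among the 8 through its native window, which the GPD promoter may have replaced.

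SIR3, YIL169C, YOL086W-A, INO1 and HPF1 were called higher without each library in turn. The call of HSP12 ended without WT 2 (limma adjusted p = 0.0607), and those of NCE103 and SED1 without any library of WT, GPD-SIR3 or GPD-SIR3-A2Q (at most 0.236 and 0.235). AHP1 lost it without WT 1, WT 2, GPD-SIR3 2 or either GPD-SIR3-A2Q library (at most 0.118), KDX1 without any library but GPD-SIR3 1 (at most 0.277), and ULI1, SGA1 and PRY2 without any of the 8 (at most 0.273, 0.282 and 0.277). With only WT and GPD-SIR3 in the fit, SED1 (0.0595), AHP1 (0.0634), ULI1 (0.142), KDX1 (0.175), PRY2 (0.219) and SGA1 (0.232) were not called, and SGA1 and PRY2 also lost the call in edgeR, in limma-voom and with other scalings (adjusted p from 0.0501 to 0.0747). SGA1 lost it with no filter (0.056) and with a mean of at least 50 (0.0589) as well.

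**Figure D5:**
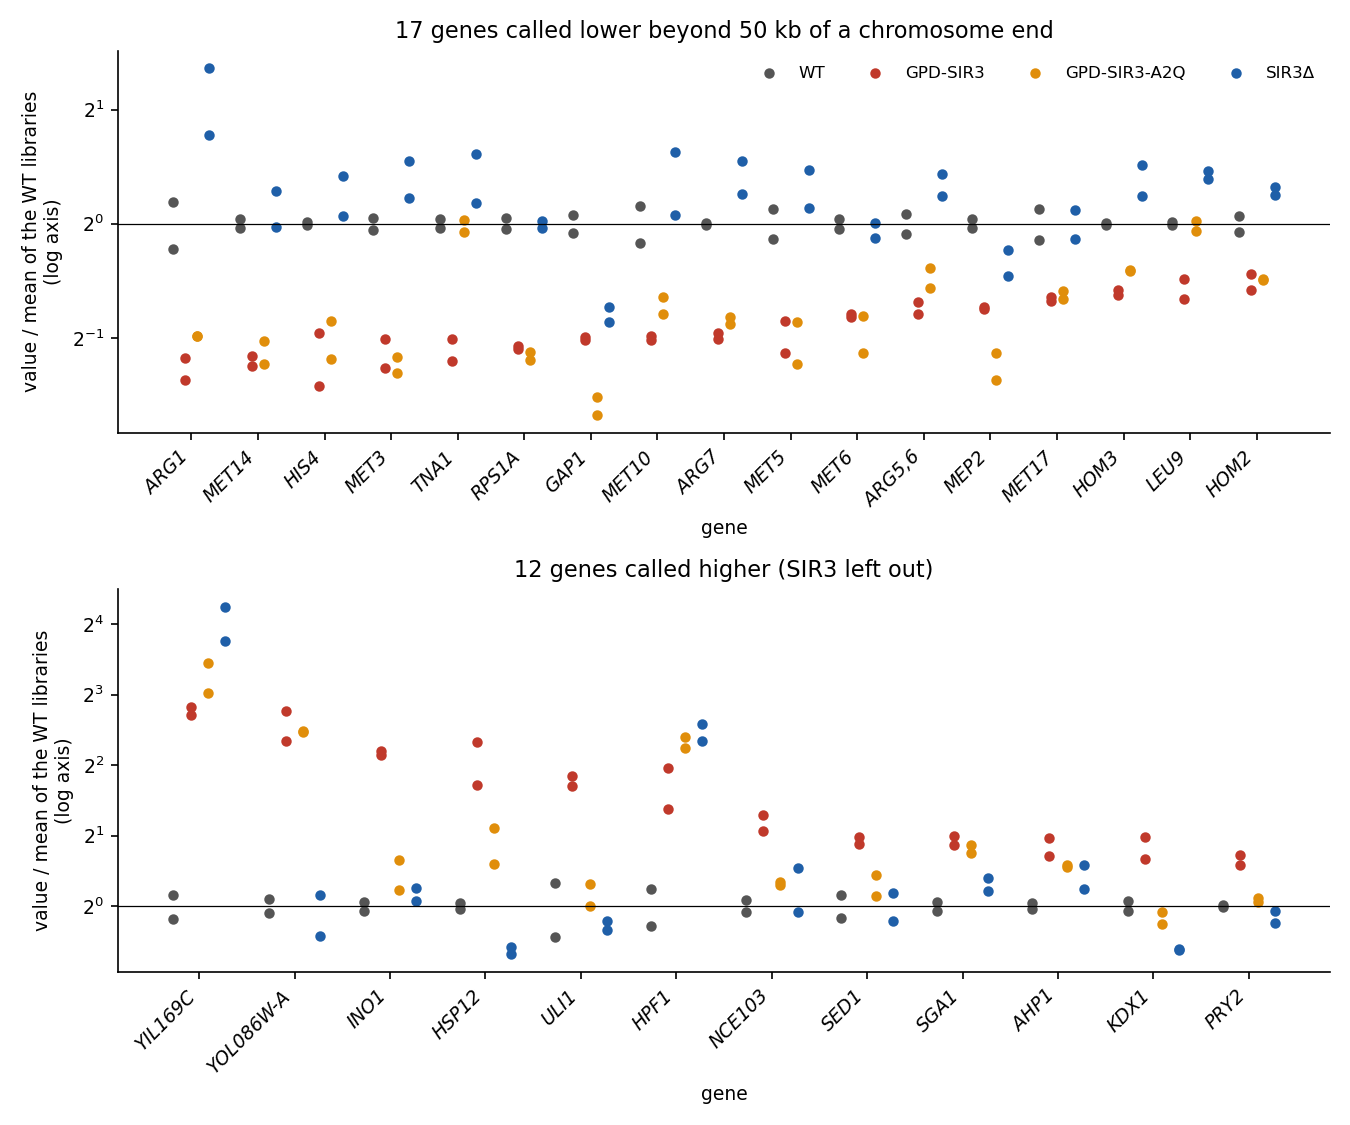
Values of 17 genes called lower beyond 50 kb and of the 12 genes called higher, SIR3 left out, each divided by the mean of its WT libraries, on a log axis. The 2 points of a colour are the libraries of a strain. TNA1 and LEU9 are near 1 in GPD-SIR3-A2Q, and ARG1 is above 1 in SIR3Δ (log2 change 1.09).

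The same genes were set beside the other strains. These comparisons share the WT or the GPD-SIR3 libraries that chose the genes, so their values are given as a description. Over all tested genes limma called 0.749% in GPD-SIR3-A2Q against WT and 0.968% in SIR3Δ against WT. Of the 41 lower genes within 30 kb, PHO89 was lower (−1.03) and ADH4 higher (1.84) in GPD-SIR3-A2Q than in WT, and ADH4 (2.43) and IMD2 (1.32) were higher in SIR3Δ. ADH4 was at 1072 and 1092 in GPD-SIR3-A2Q and at 1704 and 1558 in SIR3Δ, above its WT libraries in both strains, whereas in GPD-SIR3 it lay below them. Set directly against GPD-SIR3-A2Q, where limma called 1.46% of all tested genes, 37 of the 41 were lower in GPD-SIR3, the exceptions being YCR101C, YEL073C, RMD6 and YLR460C. Set against SIR3Δ, where limma called 4.2%, 40 were lower and YLR460C was the exception.

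Of the 18 lower genes beyond 50 kb, 9 were lower in GPD-SIR3-A2Q than in WT: RPS1A (−1.16), GAP1 (−1.60), MEP2 (−1.25), MET3 (−1.23), MET14 (−1.12), MET5 (−1.04), HIS4 (−1.02), MET6 (−0.97) and ARG7 (−0.85). Between the overexpressing strains themselves, TNA1 (limma adjusted p = 0.00523) and LEU9 (0.038) were lower in GPD-SIR3, GAP1 was higher in GPD-SIR3 (0.0426), and the other 15 did not pass. TNA1 was at 3122 and 2911 in GPD-SIR3-A2Q, which overlaps its WT libraries. In SIR3Δ against WT, GAP1 was lower (−0.79) and ARG1 higher (1.09). Set against SIR3Δ, 16 of the 18 were lower in GPD-SIR3, the exceptions being GAP1 and MEP2. Of the 13 higher genes, YOL086W-A (2.46), YIL169C (3.25) and HPF1 (2.34) were also higher than WT in GPD-SIR3-A2Q, as SIR3 was. YIL169C (4.01) and HPF1 (2.48) were also higher than WT in SIR3Δ, where YOL086W-A had a change of −0.13. INO1 (limma adjusted p = 0.00262) and KDX1 (0.0109) exceeded their GPD-SIR3-A2Q levels in GPD-SIR3. INO1 was at 59.5 and 79.8 in GPD-SIR3-A2Q and at 53.5 and 60.6 in SIR3Δ, all well below both GPD-SIR3 libraries. Set against SIR3Δ, 9 of the 13 were higher in GPD-SIR3 and YIL169C was lower.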

How the data were processed

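Total RNA was sequenced in 8 libraries, 2 for each strain, which the sample titles name and number. Zinc-fragmented, size-selected RNA went into paired-end SOLiD libraries, per the labels' protocols. TopHat 1.4.1 and the R64 build come from the submitters' processing notes. How reads were counted, whether strand was used, and what was done with reads that match several places is not given in the sources used here. The authors deposited whole counts for GPD-SIR3 2. For the other 7 libraries they deposited a signal, counts times a constant that brings each library's gene sum to that of GPD-SIR3 2. Division by that constant gave whole reads for 100% of values, with a tolerance of 0.01 read. Another 16 columns of per-sample values were not used.

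Because the values are scaled, limma 3.58.1 (R 4.3.3, with a trend) was run on log2(value + 1) of the 5473 genes that reached 10 in 2 or more of the 8 libraries. All 4 strains entered one model with 4 residual degrees of freedom. The procedure was also run on simulated counts with known changes. These were drawn independently for each gene and library, so that run does not cover deviations that genes or libraries share. The alternatives were edgeR 4.0.16, DESeq2 1.42.0 and limma-voom on the recovered reads, other pseudocounts, filters, scalings and samples, a replicate block, repeated genes left out, and each library left out. Adjusted p-values that DESeq2 gave as missing stayed missing. Libraries of a strain were not copies of one another: chi-square per degree of freedom was 39.9 for the WT pair and 34.9 for the GPD-SIR3 pair. Distances are to the ends of the R64 chromosomes, and a gene counts as repeated where over 10% of its 50-base stretches also occur elsewhere.

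The genes, the 33 gene lists and the tests were chosen with earlier results of these data known. The rule for named genes took SIR3 and the 5 genes on either side, SIR1, SIR2, SIR4, TDH3, every called gene (15 lower and 8 higher ones with values in all 4 libraries), the tested genes of each end up to the first beyond its farthest lower gene, and of each list its called members and up to 2 others of highest level. Further genes that were not called but are named beside a list or a pathway, and those of the closing section, were chosen after their values were seen. The values of 1 called gene are not reported here, though counts include it.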

Additional observations from a re-analysis of the deposited data

How the results depend on the processing

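SIR3 was called higher under every alternative (4.52 to 4.89), and of 112 single genes none changed the sign of a called value. Of the 72 calls, 34 passed without each library in turn and 32 also passed under every other setting. The 13 higher and 59 lower calls became 7 and 33 with only WT and GPD-SIR3 in the fit and 24 and 98 with DESeq2. Leaving out 1 library gave 5 to 15 higher and 33 to 53 lower calls. The 41 lower calls within 30 kb became 27 with a mean of at least 50, 24 with only WT and GPD-SIR3 in the fit and 26 with repeated genes left out, and the 18 beyond 50 kb became 9 with only those libraries and 43 with DESeq2, and 5 to 15 without 1 library. The cause was not tested, except that fewer genes enter under the mean filter and without repeats. With only WT and GPD-SIR3 in the fit, the changes of single genes stayed as they were and the spread was estimated from fewer libraries. Same-numbered libraries of WT and GPD-SIR3 did not deviate together (correlation −0.00723), while in the other pairs of strains the correlation ran from −0.0331 to 0.548 (WT with SIR3Δ), with 0.302 for GPD-SIR3 with GPD-SIR3-A2Q. The main model had no replicate block because the labels do not say what a replicate number shares. With the replicate block, 30 genes were called higher, 81 lower and 33 lower beyond 50 kb. The median change within 10 kb, −2.47, was −1.67 with a pseudocount of 10, −1.22 with no filter, −2.97 with a mean of at least 50, −2.75 with the filter on the 4 libraries or with only those in the fit, −2.76 in edgeR, −2.77 in DESeq2, −2.74 in limma-voom and −2.54 to −2.44 without 1 library. A pseudocount of 10 moved 19 called genes by over 1.5-fold, since it weighs on low values. Other scalings moved no library by over 0.1 on the log2 scale, but the calls changed. With the TMM scaling of edgeR and the median-of-ratios scaling of DESeq2, 67 and 69 genes were called lower. Of these, 24 and 26 lay beyond 50 kb, and 11 genes were called higher under either scaling. GPD-SIR3 2, with 7.01 M gene reads, limits the low genes.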

Other observations

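Further gene groups had few or no calls. All 25 tested genes of the tricarboxylic acid cycle and respiration were above 0, from 0.08 to 0.92 with a median of 0.30, and limma and edgeR called 0, DESeq2 called 2 higher and 8 had an unadjusted p below 0.05. Among them ACO1, aconitase, was at 9016 and 12309 in WT and at 13168 and 16505 in GPD-SIR3, and CYC1, cytochrome c, was at 923 and 1055 in WT and at 1435 and 1609 in GPD-SIR3 (0.62 ± 0.15, limma adjusted p = 0.13). The 11 histone genes were above 0 as well (0.01 to 0.48), with 0 calls in limma, edgeR or DESeq2 and 2 at an unadjusted p below 0.05. In purine synthesis 19 of 20 genes were below 0 (median −0.38) and IMD2, near an end, was the 1 called. ADE5,7, of the early steps, had −0.64 ± 0.13 (limma adjusted p = 0.0613) and ADE17, of the last steps, −1.23 ± 0.30 (limma adjusted p = 0.15). The 13 tested haploid-specific genes had changes from −0.16 to 0.08 and the 5 alpha-specific genes from −0.41 to 0.41, with 0 calls in limma, edgeR or DESeq2 and, among the alpha-specific genes, 1 at an unadjusted p below 0.05. Glycolysis and fermentation (17 tested), hexose transporters (10), maltose and sucrose use (8), thiamine and pyridoxine genes (12), DNA damage genes (13), chaperones (18), W303 marker genes (10), a-specific genes (3) and the PAU family (4 tested of 24) had no limma call, with medians from −0.25 for maltose and sucrose use to 0.22 for the thiamine genes, and with single changes down to −2.24 (hexose transporters), −2.09 (thiamine genes) and −1.65 (maltose). DESeq2 called 1 hexose transporter gene and 2 maltose genes lower. Of the 8 genes listed as helicases of the Y′ elements at telomeres, 0 reached the filter. That list is not a full account of genes at the very ends. YEL077C, YBL113C and YHL050C, at 0.263, 0.279 and 0.444 kb from their ends, were outside it and were called lower. Iron genes away from ends varied within strains: FET3, the iron oxidase of high-affinity uptake, was at 821 and 2170 in WT and at 2531 and 3863 in GPD-SIR3 (1.23 ± 0.53, limma adjusted p = 0.567).

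Stress and reserve carbohydrate genes differed between libraries of the same strain. HSP30, a plasma membrane heat shock protein, was at 3362 in WT 1, 308 in WT 2, 723 in GPD-SIR3 1 and 2526 in GPD-SIR3 2. TPS2, of trehalose synthesis, was at 2944, 1155, 1063 and 2062 in the same order. Of 28 tested genes of the list, 25 were both higher in WT 1 than in WT 2 and higher in GPD-SIR3 2 than in GPD-SIR3 1, which held for 27.8% of all tested genes. HSP12 was also higher in WT 1 than in WT 2 and in GPD-SIR3 2 than in GPD-SIR3 1, but both GPD-SIR3 libraries lay above both WT libraries. The part of this difference between libraries in the calls was not tested.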
